A study of Rattus norvegicus with 6 samples.

Results

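The total brain array was set against all 5 arrays of dissected structures at the edge of the third ventricle, to describe the genes that lay above every one of them and the genes that lay below every one of them. A gene was placed by its gap, the log2 intensity of total brain minus that of the highest of the 5 arrays, or that of the lowest of the 5 minus that of total brain. Of 12167 genes on the array, 154 were at least 4-fold above all 5 and 93 were at least 4-fold below all 5, which gives 247 genes in all. Both sets were chosen by these same intensities, so their gaps are a description and carry no test.

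All tissue came from adult male Sprague-Dawley rats described as normal, with no treatment. Total brain was 1 array of RNA pooled from whole brains, how many is not given, and the study used it as its reference. The dissected structures were the pineal gland (2 arrays), the subcommissural organ (1 array, labelled Subcommisural Organ, a pool of 2), the subfornical organ (1 array, a pool of 2) and the ependyma of the third ventricle (1 array, a pool of 2). The labels name laser capture microdissection for the structures and not for total brain, so dissection and tissue cannot be told apart between total brain and the others. It is not given whether separate animals supplied both pineal gland arrays.

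Whole brain RNA is dominated by neurons and glia of the cortex, striatum, thalamus, cerebellum and brainstem. Neurons carry transmitter receptors, voltage-gated ion channels and a vesicle release machinery built from SNARE proteins and their regulators. The structures along the third ventricle are built mostly of other cells: melatonin-secreting pinealocytes in the pineal gland, tall secretory ependymal cells in the subcommissural organ, ciliated cells in the ordinary ependyma, and a mix of neurons, glia and fenestrated vessels in the subfornical organ. In bulk tissue, fewer cells of a type and less RNA per cell cannot be told apart.

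The deposited values were linear intensities in arbitrary units. The 75th percentile was 7.93 on the total brain array, against 4.90 to 6.31 on the 5 dissected arrays, while the medians lay between 1.04 and 1.07. Intensities were raised to a floor of 0.142, the pooled 5th percentile, and a value under 1.05, the pooled median, was treated as near background. Over the 9966 genes that reached 1.05 on at least 1 array, total brain stood at a median of 0.31 above the mean of the 4 structures on the log2 scale, a shift that became 0.00 after quantile normalization and -0.13 when each array was scaled to its 75th percentile, so all differences are read against it. The pineal gland pair differed at least 4-fold for 332 of these 9966 genes, and their median absolute log2 difference was 0.57.

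The pool is described on 4 genes listed as markers of brain tissue. Of these, Fibcd1, Thy1 and Gpr158 are among the 154 genes above all 5, so their levels are no check of its identity. Fibcd1, a receptor for acetylated groups, was at 141 in total brain, against 0.343 and 0.311 in the pineal gland, 0.257 in the subcommissural organ, 0.142 in the subfornical organ and 4.60 in the ependyma. Thy1, a surface glycoprotein of projection neurons, was at 509 in total brain, against 7.12 and 4.30 in the pineal gland, 11.9 in the subcommissural organ, 53.5 in the subfornical organ and 72.0 in the ependyma. Gpr158, an orphan receptor of neurons, was at 105 in total brain, against 0.142 and 0.380 in the pineal gland, 2.17 in the subcommissural organ, 12.2 in the subfornical organ and 14.0 in the ependyma. Total brain was the highest of the 6 arrays for these genes, and the ependyma the next. With the mean of all probes of a gene in place of the brightest, the gaps of Gpr158 and Thy1 were 1.19 and 0.57 on the log2 scale, short of 4-fold. Grin1, the obligatory subunit of NMDA receptors, was at 151 in total brain, against 0.435 and 0.931 in the pineal gland, 39.7 in the subcommissural organ, 14.7 in the subfornical organ and 26.4 in the ependyma, which put it 3.80-fold above the nearest array and just short of the 4-fold size. Several markers of the structures lay elsewhere. Tph1, an enzyme of serotonin synthesis, was at 1.91 in total brain against 547 and 352 in the pineal gland. Creb3l4, a membrane-bound transcription factor, was at 0.445 against 76.5 in the subcommissural organ. The tektin gene Tekt1 was at 6.33 against 233 in the ependyma. Of the other markers listed for the structures, Foxj1 stayed under 1.05 on all 6 arrays. The markers listed for the subfornical organ did not peak there. Agtr1a was highest in total brain, at 5.33, against 4.95 and 2.66 in the pineal gland and 1.96 in the subfornical organ. Scn7a was at 0.573 in total brain and 3.41 in the subfornical organ, against 18.0 and 9.42 in the pineal gland.

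Promoter sequences from RefSeq (build GRCr8, 250 bases before to 50 after the start) are shown for 3 of these markers and for Ptpn21, a phosphatase gene below all 5 whose second probe repeated its gap. They lie at chr17:88742573-88742872 on the plus strand for Gpr158 and on the minus strand at chr3:35524093-35524392 for Fibcd1, chr3:28528705-28529004 for Grin1 and chr6:123727760-123728059 for Ptpn21. Capitals mark the GC box GGGCGG and the E-box CAGCTG in either orientation.
Gpr158: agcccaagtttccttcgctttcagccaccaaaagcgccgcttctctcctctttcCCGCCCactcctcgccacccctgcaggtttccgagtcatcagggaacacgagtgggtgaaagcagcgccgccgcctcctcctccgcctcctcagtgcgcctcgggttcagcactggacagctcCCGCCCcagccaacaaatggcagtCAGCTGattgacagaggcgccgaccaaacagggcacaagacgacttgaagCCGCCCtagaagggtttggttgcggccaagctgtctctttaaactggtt
Fibcd1: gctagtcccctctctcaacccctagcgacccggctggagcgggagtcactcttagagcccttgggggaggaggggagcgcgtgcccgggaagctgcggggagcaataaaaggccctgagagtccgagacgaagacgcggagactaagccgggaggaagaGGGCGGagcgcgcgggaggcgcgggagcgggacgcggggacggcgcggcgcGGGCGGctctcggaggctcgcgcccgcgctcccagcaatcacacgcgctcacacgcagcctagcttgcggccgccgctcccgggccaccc
Grin1: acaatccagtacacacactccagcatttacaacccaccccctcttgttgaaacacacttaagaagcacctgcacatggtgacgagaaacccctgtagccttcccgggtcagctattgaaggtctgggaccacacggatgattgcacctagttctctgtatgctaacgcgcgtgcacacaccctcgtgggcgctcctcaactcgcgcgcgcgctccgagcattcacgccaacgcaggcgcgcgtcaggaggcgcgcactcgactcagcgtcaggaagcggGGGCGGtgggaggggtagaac
Ptpn21: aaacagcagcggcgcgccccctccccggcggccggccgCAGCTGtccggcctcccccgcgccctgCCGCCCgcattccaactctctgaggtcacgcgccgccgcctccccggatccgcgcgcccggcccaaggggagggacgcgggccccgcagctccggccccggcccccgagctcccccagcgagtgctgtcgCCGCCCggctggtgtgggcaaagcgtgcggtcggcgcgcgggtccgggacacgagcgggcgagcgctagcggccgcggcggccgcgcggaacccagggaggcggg

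Both orientations were searched for 5 motifs, none of which contains another. Promoters were held for 113 of the 154 genes above, 75 of the 93 below and 8252 of the 9966 measured. GGGCGG was found in 54.9% of the promoters of genes above, 68.0% of those below, 60.9% of those measured and 34.9% of all 27457 rat promoters in the table. CAGCTG was found in 22.1% of promoters above, 17.3% below, 16.0% of those measured and 15.1% of all. The cAMP response element TGACGTCA was found in 4.42% above, 8.0% below, 2.99% of those measured and 1.91% of all. CACGTG was found in 4.42% above, 9.33% below, 9.26% of those measured and 6.65% of all, and TATAAA in 6.19% above, 5.33% below, 7.40% of those measured and 14.3% of all. Each of these is a match of letters, and a share of 4.42% above stands for 5 promoters.

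Of 8356 genes that reached 1.05 in total brain, the 154 made up 1.84%. Their gaps had a median of 2.47 on the log2 scale, or 5.52-fold, and 28 of them reached 8-fold. For 35 of them the highest dissected array was itself near background, so their fold is a bound, and with such values set at 1.05 there were 137 genes at 4-fold. Just inside the size stood Stmn2, a tubulin regulator of growing neurites, at 4.01-fold, Bmerb1 at 4.03-fold and the cytokine receptor gene Il7r at 4.03-fold, and just outside it Ak5, an adenylate kinase of brain, at 3.98-fold, Dmtn at 3.96-fold and the calcium sensor gene Hpca at 3.92-fold. Levels in total brain ran from 1.38 for Il7r to 541 for Atp1b1, chosen here for its level, so the set holds both abundant and faint transcripts. The total brain median over the 154 genes was 22.0, against 0.927 and 0.622 in the pineal gland, 1.03 in the subcommissural organ, 1.79 in the subfornical organ and 3.25 in the ependyma.

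**Figure D1:**
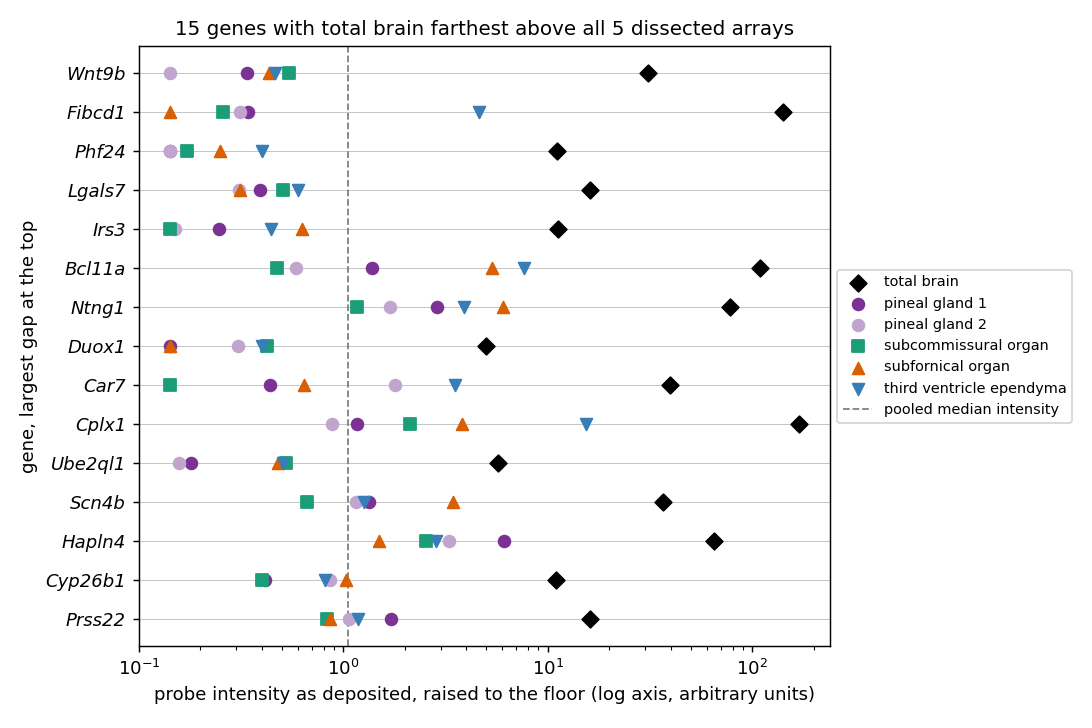
Intensity (log axis, arbitrary units) of the 15 genes with total brain farthest above all 5 dissected arrays, 1 point per array, the dashed line at the pooled median of 1.05. Total brain lies right of every other point in each row, from 5.001 for Duox1 to 169 for Cplx1. The ependyma is the nearest array for Fibcd1, Bcl11a, Car7 and Cplx1, and, under the dashed line, for Phf24 and Lgals7.

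Among the 15 genes with the largest gaps were several of neuronal wiring and excitability. Bcl11a, a zinc finger transcription factor of cortical projection neurons, was at 108 in total brain, against 1.38 and 0.589 in the pineal gland, 0.472 in the subcommissural organ, 5.34 in the subfornical organ and 7.68 in the ependyma, a gap of 14.1-fold. Ntng1, a membrane-anchored netrin of axons, was at 77.4 in total brain, against 2.88 and 1.69 in the pineal gland, 1.17 in the subcommissural organ, 6.01 in the subfornical organ and 3.90 in the ependyma, a gap of 12.9-fold. Both had their nearest array in the subfornical organ or the ependyma. Cplx1, a complexin that clamps SNARE complexes at synapses, was at 169 in total brain, against 1.17 and 0.879 in the pineal gland, 2.12 in the subcommissural organ, 3.81 in the subfornical organ and 15.3 in the ependyma. Scn4b, an accessory subunit of sodium channels, was at 36.5 in total brain, against 1.34 and 1.15 in the pineal gland, 0.665 in the subcommissural organ, 3.43 in the subfornical organ and 1.26 in the ependyma. Hapln4, which links hyaluronan to the perineuronal nets around neurons, was at 65.1 in total brain, against 6.12 and 3.29 in the pineal gland, 2.53 in the subcommissural organ, 1.49 in the subfornical organ and 2.82 in the ependyma. The pineal gland was the nearest tissue here, 10.6-fold below. Car7, a cytosolic carbonic anhydrase of neurons, was at 39.8 in total brain, against 0.437 and 1.80 in the pineal gland, 0.142 in the subcommissural organ, 0.644 in the subfornical organ and 3.52 in the ependyma.

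The other genes at the top serve a mix of roles. Wnt9b, a secreted Wnt ligand, was at 30.7 in total brain, against 0.339 and 0.142 in the pineal gland, 0.543 in the subcommissural organ, 0.434 in the subfornical organ and 0.463 in the ependyma. It was near background on every dissected array, at least 29.2-fold below, and had the largest gap of all. Lgals7, a galectin of stratified epithelia, was at 16.1 in total brain, against 0.309 to 0.598 on the 5 dissected arrays, at least 15.3-fold lower there. Irs3, an insulin receptor substrate, was at 11.2 in total brain against 0.142 to 0.629, a gap of at least 10.6-fold. Phf24, a PHD finger protein, was at 11.1 in total brain and between 0.142 and 0.400 on the dissected arrays, at least 10.6-fold apart. Cyp26b1, which breaks down retinoic acid, was at 10.99 in total brain against 0.400 to 1.03. Duox1, an enzyme that makes hydrogen peroxide, was at 5.001 in total brain against 0.142 to 0.425, and Ube2ql1, a ubiquitin-conjugating protein, at 5.70 against 0.157 to 0.523. The serine protease gene Prss22 was at 16.1 in total brain against 0.834 to 1.71. Of these genes, only Prss22 exceeded 1.05 on a dissected array.

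The array nearest to total brain was the ependyma for 69 of the 154 genes (44.8%), the subfornical organ for 33, the first pineal gland array for 31, the subcommissural organ for 14 and the second pineal gland array for 7. Over the 3047 genes above all 5 by any gap, the ependyma was nearest for 20.2% and the subfornical organ for 29.6%. The summed level of 11 pan-neuronal markers was 1673 in total brain, against 299 and 211 in the pineal gland, 194 in the subcommissural organ, 334 in the subfornical organ and 470 in the ependyma. For 13 genes of synaptic vesicle machinery the order differed, with 1008 in total brain and 474 and 319 in the pineal gland. The subcommissural organ was at 70.4 for that list, the subfornical organ at 120 and the ependyma at 226. The part that neuronal RNA on the ependyma and subfornical organ arrays had in the count of genes was not tested. Without the ependyma array there were 266 genes at least 4-fold above the other dissected arrays, and without the subfornical organ array 276.

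Genes of neurons were next described through 13 lists of neuronal types, brain regions, synapses, receptors and channels. These lists held 261 genes, of which 204 were on the array and 157 were measured, meaning that at least 1 of the 6 arrays reached 1.05. Of the 157, 104 (66.2%) lay above all 5 and none lay below all 5, whereas 30.6% of all measured genes lay above all 5 by any gap and 9.21% below. At 4-fold, 28 of the 157 (17.8%) lay above, against 1.55% of all measured genes. The count was 18 after quantile normalization and 17 with scaling to the 75th percentile. The 28 genes were picked by these same intensities, so their share is a description and carries no test. The filter of 1.05 can be reached on total brain alone, as for Gad2, Slc6a4, Kcnj9 and Scn1a, which favours genes high there. All measured genes passed this same filter. After quantile normalization 91 of the 157 lay above all 5, against 19.8% of all measured genes, and 1 lay below. Some genes stand in more than 1 list. The median of log2 total brain minus the mean of the 4 structures was 2.13 over the 157 genes, and it was above 0 for each of the 13 lists with the deposited values, after quantile normalization and after scaling to the 75th percentile.

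Pan-neuronal markers lay above all 5 for all 11 measured genes, with 4 at 4-fold and a median of 3.29 over the mean of the structures. Nefm, the middle neurofilament subunit, was at 14.5 in total brain, against 0.431 and 0.324 in the pineal gland, 0.437 in the subcommissural organ, 0.681 in the subfornical organ and 1.63 in the ependyma. Nefl, the light subunit, was at 38.6 in total brain, against 1.15 and 1.21 in the pineal gland, 1.61 in the subcommissural organ, 1.80 in the subfornical organ and 5.83 in the ependyma. Stmn2 was at 58.1 in total brain, against 1.01 and 0.600 in the pineal gland, 1.004 in the subcommissural organ, 4.26 in the subfornical organ and 14.5 in the ependyma. For these genes the ependyma was the highest of the dissected arrays. The list median against each array was 5.07 and 5.48 against the pineal gland, 4.59 against the subcommissural organ, 3.25 against the subfornical organ and 2.00 against the ependyma.

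Excitatory neurons of cortex and hippocampus had 6 of 11 measured genes above all 5, with a median of 2.77. Ddn, a dendritic protein of the forebrain, was at 42.6 in total brain, against 0.282 to 5.19 on the dissected arrays, and Lmo3, a LIM-only factor, at 26.8 against 0.358 to 4.34. Camk2a, the alpha subunit of the kinase that serves synaptic plasticity, was at 22.0 in total brain and 5.72 in the ependyma, with 0.142 to 0.772 on the other 4 arrays. Striatal projection neurons had 8 of 13 above all 5, with a median of 1.70. Drd2, the dopamine D2 receptor, was at 21.8 in total brain, against 0.344 and 0.297 in the pineal gland, 3.74 in the subcommissural organ, 5.16 in the subfornical organ and 1.92 in the ependyma. The G protein subunit gene Gng7 was at 11.3 against 0.151 to 2.35, while the tachykinin precursor gene Tac1 was at 52.4 in total brain and 16.8 in the ependyma.

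Cortical interneurons and GABA synthesis had 8 of 11 above all 5, with a median of 1.94. Gad2, an enzyme that makes GABA, was at 3.42 in total brain, at least 3.25-fold above the dissected arrays, which were at 0.193 to 0.604, and the vesicular GABA transporter gene Slc32a1 was at 7.33 against 2.20 in the ependyma. The thalamus and midbrain list had 8 of 8 above all 5, none of them by 4-fold. Tcf7l2, a transcription factor of thalamic neurons, was at 135 in total brain, against 59.0 in the subfornical organ and 4.30 to 25.7 elsewhere, and Slc17a6, a vesicular glutamate transporter, was at 161 against 94.1 and 53.5 in the pineal gland. Cerebellar genes split more, with 5 of 12 above all 5 and a median of 0.97. Grm4, a presynaptic glutamate receptor, was at 16.1 in total brain, against 0.217 to 1.99, but Pcp4, a calmodulin regulator, was at 406 in total brain and 377.2 in the ependyma. Monoamine and cholinergic genes had 3 of 9 above all 5, with a median of 0.65. Slc6a4, the serotonin transporter, was at 2.99 in total brain against 0.267 to 0.599, and the orphan nuclear receptor gene Nr4a2 at 8.76 against 4.39 to 5.003. That share was near the 30.6% of all measured genes, and other members were higher elsewhere. Ddc, which makes dopamine and serotonin from their precursors, was at 26.1 in total brain against 491 and 363 in the pineal gland, and Th, the first enzyme of dopamine synthesis, at 10.97 against 12.8 in the ependyma, both chosen after their values were seen.

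Hypothalamic peptide genes, a list outside the 13, had 2 of 9 measured genes above all 5, none below all 5 and a median of -0.43 against the mean of the structures. Of all measured genes 30.6% lay above all 5 and 9.21% below, so with 9 genes these counts do not set the list apart. Npy, a peptide of interneurons and of hypothalamic neurons, was at 11.1 in total brain, against 5.26 on the second pineal gland array and 0.681 to 4.13 elsewhere. Sst, the somatostatin precursor, was at 5.53 in total brain and 5.10 in the ependyma. The list median of log2 total brain minus each array was 0.80 and 0.75 with the pineal gland, 1.56 with the subcommissural organ, 0.22 with the subfornical organ and -1.61 with the ependyma. Total brain was lower only than the ependyma by that measure.

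The vesicle release machinery had 9 of 13 genes above all 5 and 5 at 4-fold, with a median of 2.97. Besides Cplx1 there was Bsn, a scaffold of the active zone, at 51.6 in total brain, against 10.2 and 7.14 in the pineal gland, 2.49 in the subcommissural organ, 3.28 in the subfornical organ and 8.63 in the ependyma. Vamp1, a vesicle SNARE, was at 52.0 against 2.89 to 10.3, and Sv2a, a vesicle glycoprotein, at 269 against 15.8 to 63.9. The pineal gland was the nearest tissue for Bsn and Vamp1. The postsynaptic density list had 9 of 13 above all 5, with a median of 2.31. Arc, an activity-induced gene of dendrites, was at 16.5 in total brain, against 0.660 and 0.235 in the pineal gland, 0.142 in the subcommissural organ, 2.61 in the subfornical organ and 2.75 in the ependyma, and the scaffold gene Dlgap3 was at 80.9 against 0.660 to 16.0.

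Glutamate receptors had 13 of 14 measured genes above all 5, with a median of 2.35. Gria3, an AMPA receptor subunit, was at 34.5 in total brain, against 1.47 and 0.709 in the pineal gland, 3.47 in the subcommissural organ, 1.83 in the subfornical organ and 4.10 in the ependyma. Grin3a, an NMDA receptor subunit, was at 10.9 against 0.160 to 2.02. GABA and glycine receptors had 6 of 7 above all 5, with a median of 3.14. Gabrb2, a subunit of GABA-A receptors, was at 18.8 in total brain, against 0.326 and 0.291 in the pineal gland, 1.05 in the subcommissural organ, 0.229 in the subfornical organ and 2.18 in the ependyma. Gabbr2, a subunit of the metabotropic GABA receptor, was at 145 against 8.39 to 34.8, and Glrb, the beta subunit of glycine receptors, at 26.2 against 0.958 to 8.47. No measured gene of these receptor lists lay below all 5.

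Voltage-gated sodium and calcium channel genes had 12 of 17 above all 5 and 4 at 4-fold, with a median of 2.45. Cacna2d3, an accessory subunit of calcium channels, was at 41.96 in total brain, against 3.66 and 1.81 in the pineal gland, 0.690 in the subcommissural organ, 1.93 in the subfornical organ and 4.73 in the ependyma. Scn2a, a pore-forming sodium channel of axons, was at 28.6 against 0.448 to 4.58, and Scn1a, another of interneurons, at 4.78 against 0.305 to 0.709. Potassium channel genes were less uniform, with 10 of 22 above all 5 and 1 at 4-fold. That gene was Kcnj9, an inward rectifier opened by G proteins, at 4.63 in total brain against 0.229 to 0.632. Kcnk1, a leak channel, was at 139 in total brain and 44.7 in the subfornical organ. Activity-induced genes had 8 of 14 above all 5. Homer1 was at 64.6 against 8.80 to 20.2 and Egr4 at 6.94 against 0.590 to 2.69, whereas Ier2 was at 1.49 in total brain and 2.14 to 5.16 on the dissected arrays, below all 5.

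**Figure D2:**
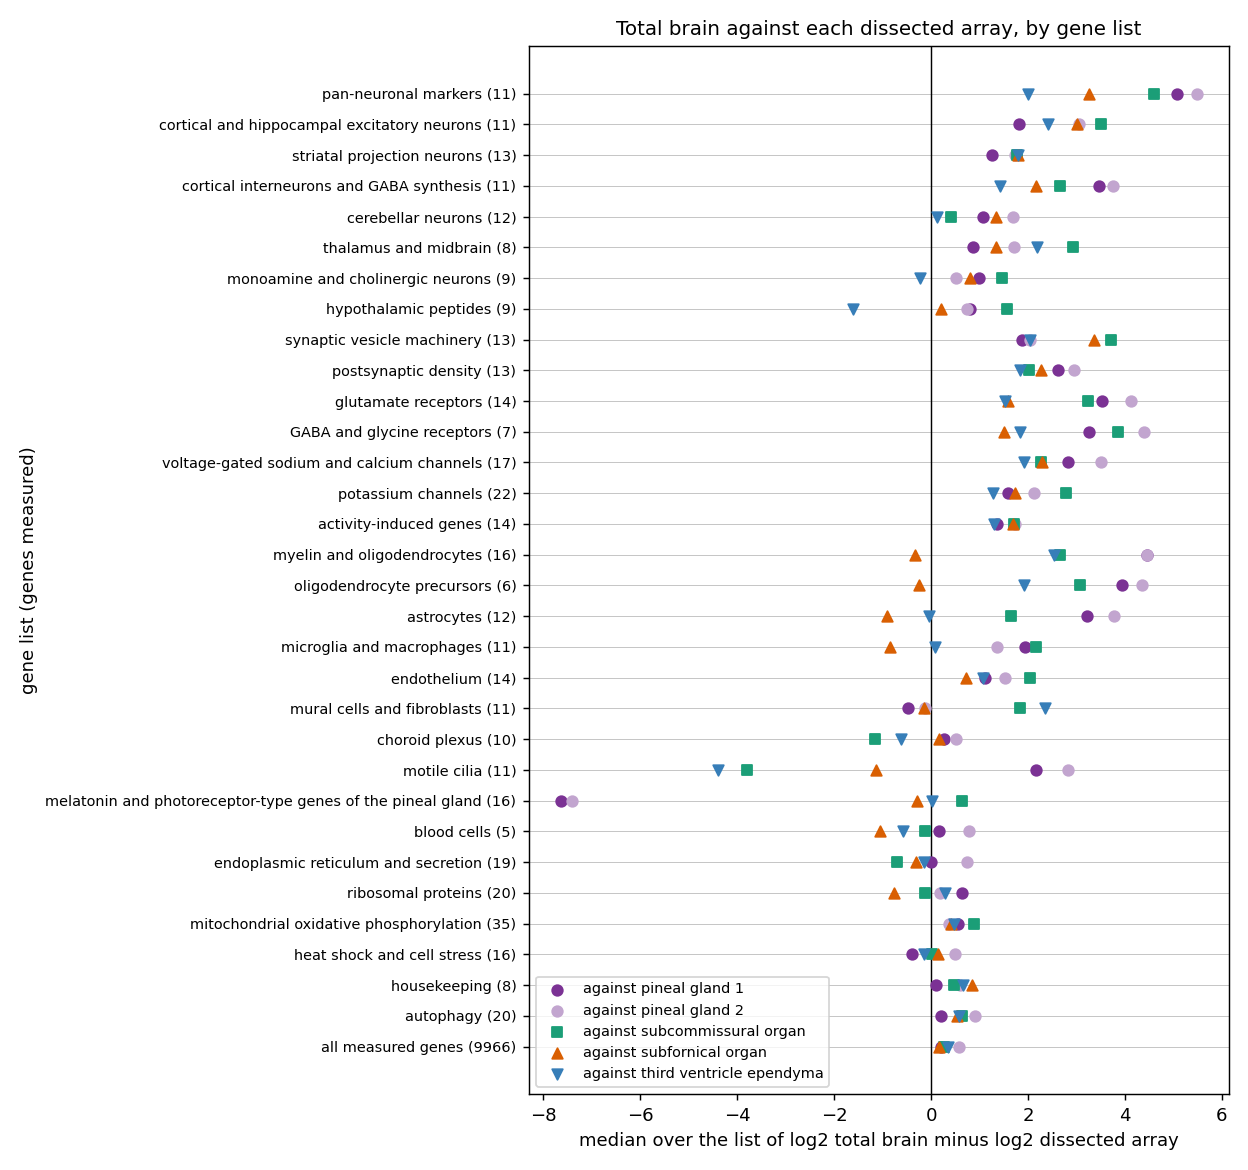
For each gene list, the median over its measured genes (their number in parentheses) of log2 total brain minus log2 of each dissected array, 1 point per array. Points right of 0 stand for lists higher in total brain: the pan-neuronal list runs from 2.00 to 5.48, myelin and oligodendrocyte genes lie at -0.32 against the subfornical organ and at 2.53 to 4.46 against the other arrays, and motile cilia genes reach -4.40 against the ependyma.

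Glial lists had from 1 of 11 to 3 of 12 measured genes above all 5 arrays, against 30.6% of all measured genes. In lists this short, few genes decide the share. No gene of these lists lay above all 5 by 4-fold, a size that 1.55% of all measured genes reached, so lists of this length could hold none. Myelin and oligodendrocyte genes had a median of 2.30 over the mean of the structures, and 3 of 16 measured genes lay above all 5. Opalin, a myelin glycoprotein, was at 12.8 in total brain and 5.13 in the subfornical organ, with 0.142 to 1.17 elsewhere. Cnp, an enzyme of myelin, was at 676 in total brain, against 50.1 and 27.7 in the pineal gland, 112 in the subcommissural organ, 620 in the subfornical organ and 152 in the ependyma. Total brain was 1.09-fold above the subfornical organ for Cnp, and Ermn, a cytoskeletal protein of myelin, was at 41.5 in total brain and 35.1 in the subfornical organ. Gpr37, a receptor of oligodendrocytes, was below all 5 at 3.07 against 4.06 to 13.4. Oligodendrocyte precursor genes had 1 of 6 above all 5, Cspg4, a surface proteoglycan, at 57.8 in total brain against 44.7 in the subfornical organ.

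Astrocyte genes had 3 of 12 above all 5, with a median of 1.29. Gjb6, a gap junction protein of astrocytes, was at 55.3 in total brain, against 0.563 and 3.60 in the pineal gland, 3.91 in the subcommissural organ, 16.5 in the subfornical organ and 18.7 in the ependyma. Glul, which makes glutamine, was at 506 against 41.5 to 303, and Aldoc, a glycolytic enzyme, at 406 against 37.1 to 258. Microglia and macrophage genes had 1 of 11 above all 5, the purinergic receptor gene P2ry12, at 3.27 in total brain against 2.53 in the ependyma. Both lists stood lower in total brain than in the subfornical organ with medians of -0.91 for astrocytes and -0.85 for microglia.

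Endothelial genes lay above all 5 for 8 of 14, against 30.6% of all measured genes, with a median of 1.46. None did so by 4-fold, against 1.55% of all measured genes. Tek, the angiopoietin receptor, was at 20.6 in total brain against 1.56 to 6.55, and Cldn5, the tight junction protein of brain capillaries, at 167 against 11.1 to 89.4. Mural cell and fibroblast genes had 3 of 11 above all 5, led by Rgs5, a pericyte regulator of G proteins, at 5.18 against 0.302 to 2.16. Choroid plexus genes had a median of -0.45, which moved to 0.00 in the setting with the floor at the pooled median. The prolactin receptor gene Prlr was above all 5, at 2.80 against 0.163 to 0.546, while Otx2, a homeobox factor, was below all 5 at 19.4 against 23.7 to 214. Blood cell genes had 1 of 5 above all 5, Alas2, an enzyme of heme synthesis, at 55.4 in total brain and 54.3 in the subfornical organ.

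Genes that mark the dissected structures lay below all 5 about as often as the 9.21% of all measured genes. Of 11 motile cilia genes 1 lay below all 5, Mlf1, at 5.80 in total brain against 6.82 and 9.04 in the pineal gland, 149 in the subcommissural organ, 30.1 in the subfornical organ and 164 in the ependyma. Of 16 pineal gland genes 2 lay below all 5, Otx2 and Pax4, a homeobox factor, at 0.797 in total brain against 1.42 to 131. None of these genes was 4-fold below.

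Lists of general cell functions had medians between -0.27 and 0.61, around the 0.31 of all measured genes. Of 35 genes of mitochondrial oxidative phosphorylation 21 lay above all 5, against 30.6% of all measured genes. None did so by 4-fold, against 1.55% of all measured genes. Their median of 0.54 became 0.14 after quantile normalization. Ndufs4, a subunit of complex I, was at 69.4 in total brain against 20.0 to 36.2. Ribosomal protein genes had 2 of 20 above all 5, with Rpl3 at 322 against 227 to 297. Genes of the endoplasmic reticulum had 2 of 19 above and 3 below, among them Sec61b, a translocon subunit, at 6.62 in total brain against 10.1 to 33.8. Heat shock genes had 3 of 16 above and 1 below, Hsp90ab1, a chaperone, at 22.9 against 31.1 to 55.9. Housekeeping genes had 4 of 8 above and 1 below, with Gapdh at 1133 in total brain against 375 to 658, and B2m, the light chain of MHC class I, at 5.40 against 6.84 to 15.9. Autophagy genes had 11 of 20 above and 2 below, and Atg101 among those below had the largest gap of all genes below all 5.

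Of 6515 genes that reached 1.05 on all 5 dissected arrays, 93 (1.43%) were at least 4-fold lower in total brain, with a median gap of 2.78 on the log2 scale, or 6.85-fold. Because this count asks for a level on each of 5 arrays and the count above asks for a level on 1, the counts do not compare. In total brain 78 of the 93 genes were under 1.05, so their folds are bounds, and with values under 1.05 set at it 39 genes remained at 4-fold. The total brain median over the 93 genes was 0.497, against 6.84 and 5.92 in the pineal gland, 8.05 in the subcommissural organ, 6.62 in the subfornical organ and 6.35 in the ependyma. The medians of the 5 dissected arrays thus lay close together, and the lowest array was the ependyma for 23 genes, the subfornical organ for 21, the second pineal gland array for 20, the subcommissural organ for 17 and the first pineal gland array for 12. Just inside the size stood Tbc1d31 at 4.01-fold, Scrn2 at 4.08-fold and the kinase gene Araf at 4.15-fold, and just outside it Dmac2l at 3.99-fold, Ybey at 3.98-fold and Hook2 at 3.97-fold. Of the 93 genes 1 (1.08%) stood in any of the 31 lists, against 4.03% of all measured genes and 18.8% of the 154 genes above.

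**Figure D3:**
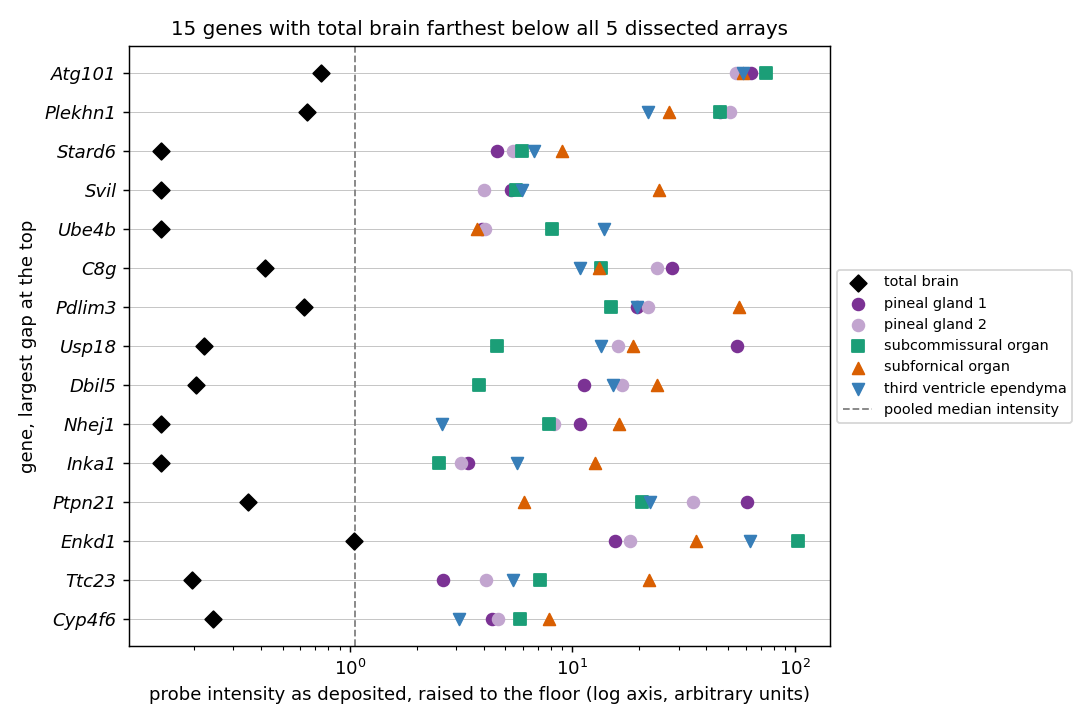
Intensity (log axis, arbitrary units) of the 15 genes with total brain farthest below all 5 dissected arrays, 1 point per array, the dashed line at the pooled median of 1.05. Total brain lies left of the dashed line in every row, from 0.142 to 1.04, and the dissected arrays lie between 2.52 and 103.

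Atg101, a subunit of the ULK1 complex that starts autophagy, was at 0.744 in total brain, against 63.3 and 54.1 in the pineal gland, 74.1 in the subcommissural organ, 58.4 in the subfornical organ and 58.4 in the ependyma, at least 51.4-fold lower in total brain. The dissected arrays differed by less than 1.5-fold from each other. Plekhn1, a pleckstrin homology domain protein, was at 0.640 in total brain, against 46.0 and 51.0 in the pineal gland, 45.8 in the subcommissural organ, 27.1 in the subfornical organ and 21.8 in the ependyma, at least 20.8-fold lower. C8g, a subunit of complement component 8, was at 0.416 in total brain, against 28.1 and 23.9 in the pineal gland, 13.5 in the subcommissural organ, 13.1 in the subfornical organ and 10.8 in the ependyma, at least 10.3-fold lower. Enkd1, a protein of centrosomes and microtubules, was at 1.04 in total brain, against 15.5 and 18.1 in the pineal gland, 103 in the subcommissural organ, 35.8 in the subfornical organ and 62.6 in the ependyma, at least 14.8-fold lower. These genes had levels well over background on all 5 dissected arrays.

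Cytoskeletal and signalling genes followed. Pdlim3, an actin-associated LIM protein, was at 0.623 in total brain, against 19.5 and 21.8 in the pineal gland, 14.9 in the subcommissural organ, 55.8 in the subfornical organ and 19.4 in the ependyma. Ptpn21, a tyrosine phosphatase with a cytoskeletal domain, was at 0.350 in total brain, against 60.7 and 34.8 in the pineal gland, 20.5 in the subcommissural organ, 6.06 in the subfornical organ and 22.4 in the ependyma, at least 5.76-fold lower. The supervillin gene Svil, whose product ties actin to membranes, was at the floor of 0.142 in total brain and between 4.01 and 24.5 on the dissected arrays. Inka1, an inhibitor of a p21-activated kinase, was at the floor in total brain and between 2.52 and 12.6 on the dissected arrays, at least 2.40-fold higher there. The bound falls short of 4-fold where the dissected level is itself low, as for Svil, at 3.82-fold, and Inka1.

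Among genes of protein turnover and DNA repair, Usp18, which removes the ubiquitin-like protein ISG15, was at 0.221 in total brain, against 54.8 and 16.0 in the pineal gland, 4.58 in the subcommissural organ, 18.7 in the subfornical organ and 13.5 in the ependyma. Ube4b, a ubiquitin ligase, was at the floor in total brain against 3.72 to 13.9, and Nhej1, a factor that joins DNA ends, at the floor against 2.59 to 16.1. Genes of lipid handling included Stard6, a lipid transfer protein, at the floor in total brain against 4.57 to 8.999, and Cyp4f6, a fatty acid hydroxylase, at 0.243 against 3.10 to 7.86. Dbil5, a relative of the acyl-CoA binding protein, was at 0.203 in total brain against 3.82 to 24.0, and Ttc23, a tetratricopeptide protein, at 0.195 against 2.61 to 22.0. None of the 15 reached 1.05 in total brain.

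Each gene was read by its brightest probe, and the next brightest probe of the same gene did not enter the choice. It is given here with no filter on its level. Of the 154 genes above all 5, 61 had another probe, which was under 1.05 on all 6 arrays for 25 of them. The second probe also lay above all 5 for 31 of 61 (50.8%) and below all 5 for 5, against 25.4% above all 5 over the 3386 measured genes with another probe. It was at least 4-fold above for 16 (26.2%), against 1.39% of the 3386. Scn4b was at 32.9 in total brain by its second probe, against 0.267 to 2.46 on the dissected arrays, and Cplx1 at 78.9 against 0.697 to 7.85. By its second probe Ntng1 was at 1.88 in total brain against 0.170 to 1.18, short of 4-fold. Bsn, Sv2a, Dlgap3 and Grin3a also lay above all 5 by less than 4-fold, with gaps of 0.82, 0.75, 0.59 and 0.26 on the log2 scale. For Thy1 and Gpr158 the second probe stayed under 1.05 on every array, and for Il7r and Prlr it was lower in total brain than the mean of the structures.

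Of the 93 genes below all 5, 32 had another probe. It lay below all 5 for 9 of 32 (28.1%), against 13.8% of the 3386, and above all 5 for 7 (21.9%), against 25.4%. At 4-fold it was below for 3 (9.38%), against 0.797%. Ptpn21 was at 0.258 in total brain by its second probe, against 6.13 to 55.1, and Dbil5 and Ermard were the others at 4-fold. Svil, Usp18, Lrrfip1 and Tbc1d31 were among those with a second probe above all 5. Lrrfip1 was at 3.95 against 0.522 to 1.26 and Tbc1d31 at 4.85 against 0.142 to 1.62, so their probes disagree in direction. The second probe of Svil stayed under 1.05 on every array. That of Usp18 was at 3.89 in total brain and 3.88 on the first pineal gland array. The second probes of Pdlim7, Hps1 and Fhod1 also lay above all 5, that of Fhod1 under 1.05 on every array. By its second probe Pdlim7 was at 6.93 against 3.57 to 5.49. Those of Ube4b and Nhej1 did not lie below all 5. The place below all 5 of these genes, and of Svil, Usp18, Lrrfip1 and Tbc1d31, rests on 1 probe. Genes with no other probe, such as Atg101, Plekhn1, C8g and Enkd1, likewise rest on 1. Genes named for their second probe were chosen after their values were seen.

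**Figure D4:**
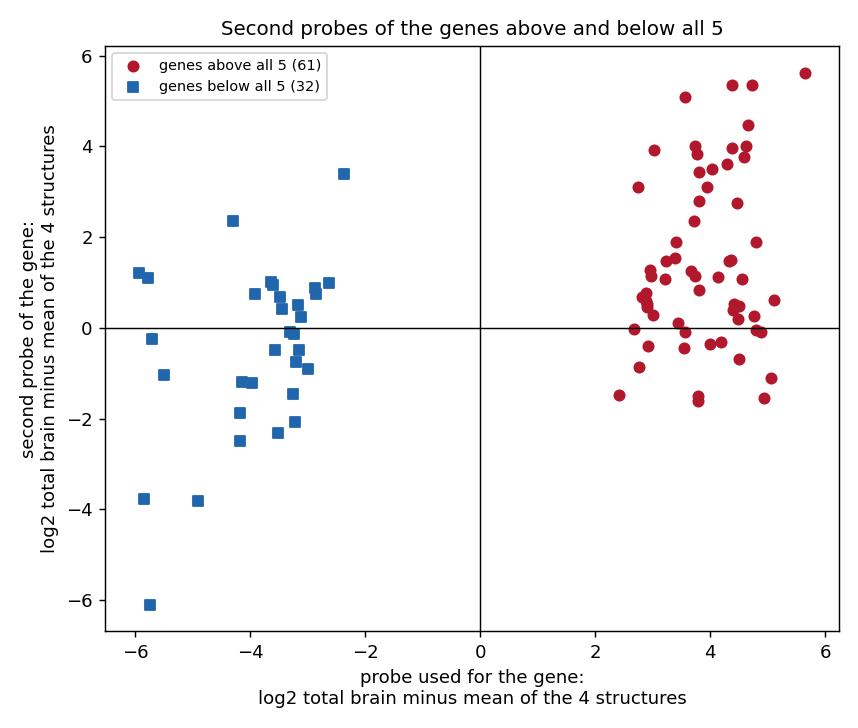
Log2 total brain minus the mean of the 4 structures by the probe used for each gene (x axis) and by its second probe (y axis), for 61 genes above all 5 and 32 below. Of the genes above, 46 lie over 0 on the y axis and 15 under it, and of the genes below 18 lie under it and 14 over it. Over all 3386 measured genes with another probe, not drawn, the second probe was over 0 for 1953 and under 0 for 1433.

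The same counts were made for each other tissue, to show how far total brain stands apart. Total brain was at least 4-fold above all arrays of the other tissues for 154 genes, the pineal gland, by the lower of its arrays, for 100, the subfornical organ for 75, the subcommissural organ for 57 and the ependyma for 53. Below all others there were 93 genes in total brain, 185 in the pineal gland, 119 in the subcommissural organ, 49 in the subfornical organ and 32 in the ependyma. Total brain had the largest count above with the deposited values, and fewer genes than the pineal gland and the subcommissural organ below. Of genes at the filter, the share above was 1.84% in total brain, against 0.642% to 1.32% in the other tissues. The share below was 1.43%, against 0.497% to 2.75%. After quantile normalization total brain had 96 genes above all 5 and 110 below, and with scaling to the 75th percentile 83 and 162. The other tissues were not counted under these scalings, so the order of tissues there is not known.

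**Figure D5:**
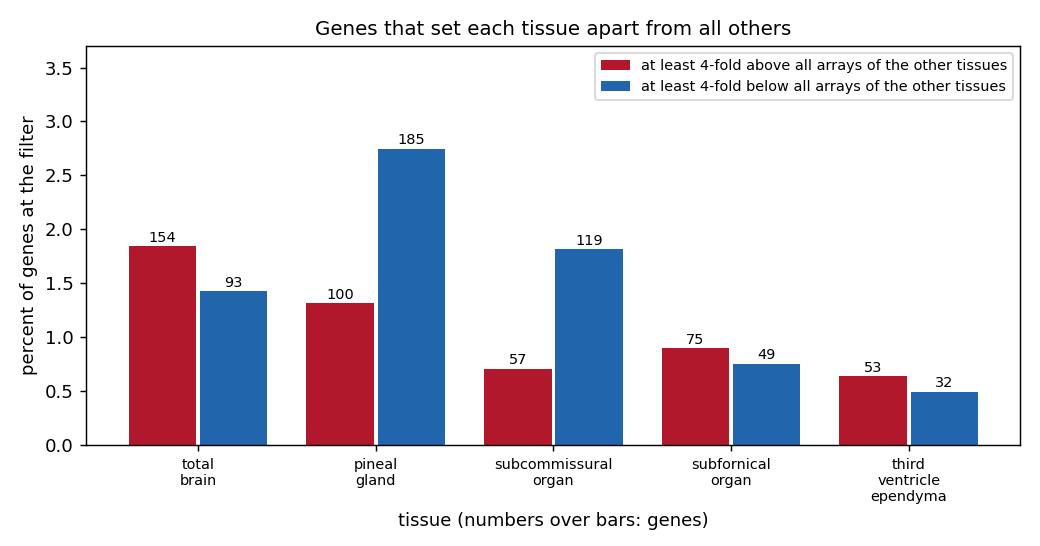
Percent of genes at the filter that were at least 4-fold above (red) or below (blue) all arrays of the other tissues, with the number of genes over each bar. Total brain has 154 above and 93 below, and the pineal gland 100 above and 185 below.

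With 1 array of total brain, no test of single genes against the spread of total brain was possible, and an exact permutation test of 1 array against 5 cannot go below a one-sided p of 0.167. A limma fit with a mean per tissue set total brain against the mean of the 4 structures, with the pineal gland pair as its only residual degree of freedom and the lone arrays assumed to vary like that pair. It called 933 of 9966 genes higher (9.36%) and 542 lower (5.44%) in total brain at a Benjamini-Hochberg adjusted p under 0.05. After quantile normalization the fit called 0 genes, with 2543 at an unadjusted p under 0.05, so its calls depend on the scaling.

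The genes above and below also differed in length on the genome, which the choice did not use. The median span from start to end of the gene was 34.7 kb for the 154 genes above, 25.3 kb for the 93 genes below and 22.9 kb for the 9948 measured genes with an annotated span. These are given as a description, since genes of a set are not independent replicates.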

How the data were processed

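Gene expression was measured on 6 one-colour arrays. Per the labels' protocols, in vitro transcription in 2 rounds amplified 3 ng of total RNA, which was labelled with biotin. The authors deposited 1 linear intensity per probe and array. The scanner, background correction and scaling are not given in the sources used here, and the values themselves show a linear scale. A value of -9999 was taken as missing, which left 34963 of 35129 probes. Exactly 1 symbol came with 16865 probes and several with 165, and 16836 gene identifiers were found in RefSeq. Intensities were raised to the pooled 5th percentile (0.142) and log2 was taken, with no further scaling. Each gene was read by its brightest probe by the mean over 6 arrays. A gap was called at 4-fold, with the filter at the pooled median (1.05). limma 3.58.1 (lmFit, eBayes, two-sided, Benjamini-Hochberg) was fitted on all measured genes, and its steps were tested on simulated data. Named genes were the 15 with the largest gap on each side, the 3 on each side of the 4-fold size, 4 markers, and up to 4 above and 2 below in each list. The members and lists were chosen with earlier results of these data known. Alternatives changed the scaling, filter, floor, probe and arrays. No detection call was available, and the number of arrays limits the precision. P-values measure only the spread between the 2 pineal gland arrays, which may be technical.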

Additional observations from a re-analysis of the deposited data

Results flagged for a closer look

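Probes without a single gene symbol also carried the contrast and enter none of the counts above. Of 7463 such probes that reached 1.05 in total brain, 263 were at least 4-fold above all 5 dissected arrays, or 3.52%, against 2.07% of probes with 1 symbol. Of 4820 that reached 1.05 on all 5 dissected arrays, 168 were at least 4-fold lower in total brain, or 3.49%, against 1.58% of probes with 1 symbol. Their genes are not named here.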

How the results depend on the processing

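The counts moved with the scaling. Quantile normalization gave 96 genes above all 5 and 110 below, and scaling to the 75th percentile gave 83 above and 162 below, so the share above among both fell to 46.6% and 33.9%, against 62.3% with the deposited values. All 96 and all 83 were among the 154 genes above. The filter at the 75th percentile left 126 above and 23 below, and the floor at the 50th percentile 137 above and 39 below. Leaving out 1 dissected array in turn gave 158 to 276 genes above, the highest without the subfornical organ (276) and without the ependyma (266), and 102 to 129 below. Such counts can only grow, since fewer arrays have to be cleared. The limma calls fell to 0 after quantile normalization, 700 with scaling to the 75th percentile (40.0% higher) and 367 without a filter, against 1475, and ranged over 1247 to 1791 without the subcommissural organ, subfornical organ or ependyma. Without a pineal gland array no residual degree of freedom is left, so no fit was made. The cause of these changes was not tested. Of 252 recomputed gaps of 18 named genes above, and 210 of 15 below, none changed sign. Most of them could not have done so. A filter leaves a gap as it is, and a floor cannot carry it past 0. Leaving out an array or averaging the pineal gland pair can only widen a gap. Only the scalings and the choice of probe could reverse a sign. The mean of all probes brought Thy1 to 0.57 and Gpr158 to 1.19 on the log2 scale. List medians changed side for blood cells (-0.55 to 1.11) and choroid plexus (-0.86 to 0.00). Second probes were read with no filter, chosen after seeing the data, since a filter on their highest array favours probes high on any array. With it, 28 of 36 (77.8%) second probes of the genes above lay above all 5, against 29.5% over 2198 measured genes. Of 25 second probes of the genes below, 9 (36%) lay below all 5, against 13.9%, and 5 (20%) lay above all 5. No paired analysis was possible because only the pineal gland has more than 1 array.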
